A study of Danio rerio with 2 samples.

Results

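Dense runs of open chromatin were examined in sorted retinal pigment epithelium (RPE) cells from zebrafish embryos. A run was formed on chromosomes 1 to 25 by joining neighbouring peaks whenever the gap from the end of one to the start of the next was under 2000 bp, and runs of at least 10 peaks were kept. This rule found 42 runs with 472 peaks, which is 0.202% of the 233815 peaks on these chromosomes and 0.198% of the 238369 peaks listed in all. The rule used positions only, and no count entered it directly. The study detected the listed peaks from its own reads, however, so their positions are not independent of signal. Open DNA was mapped with ATAC-seq, which relies on a transposase that inserts adapters where nucleosomes leave DNA exposed, at 23 hours post fertilization (hpf). The 2 libraries, RPE replicate 1 and RPE replicate 2, form a single group of tg(Enh-1_bHLHe40:GFP) embryos. This transgene drives GFP from an enhancer of bhlhe40, and GFP-positive cells were sorted from pooled whole embryos, so any other cell that expresses it would be sorted too. The study also profiled the neural retina (NR), whose libraries were not analysed here. No annotation of the danRer10 build was at hand, so marker genes of the RPE were not checked, and no DNA sequence is shown. Fewer open cells and less accessibility per cell cannot be told apart in such bulk libraries.

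Regulatory elements such as promoters and enhancers lose or shift their nucleosomes when factors bind them, which is what ATAC-seq detects as a peak. Genes of developmental regulators often have many such elements close together, and clustered gene families such as the Hox genes place several promoters and enhancers in a short stretch. In the optic cup, the RPE is the outer layer that will become pigmented, and it arises from the same progenitors as the neural retina. The peak list was made in a study of both domains, and listed peaks range down to a count of 0 in the RPE libraries.

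RPE replicate 1 had 23996755 counts in peaks and RPE replicate 2 had 19653966. Values are CPM, the counts per 1000000 counts in peaks of the same library. Peaks of the dense runs had a median of 134 counts in replicate 1 and 97.5 in replicate 2, and none had 0 counts in either library. Of the 472 peaks, 3 (0.636%) were under 10 counts in replicate 1 and 3 in replicate 2, against 14.6% and 12.2% of the other peaks on chromosomes 1 to 25. The SD given below is between the 2 libraries (n = 2). With 2 libraries an exact permutation test cannot go below a two-sided p = 0.5, so differences between dense-run peaks and other peaks are given per library as a description and without a test.

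The runs were short stretches with peaks packed about every kilobase. Of the 42 runs, 22 had 10 peaks, 10 had 11 and 1 had 12. There were 2 runs with 13 peaks, 2 with 14, 4 with 15 and 1 with 16. Just outside the limit, 45 runs had 9 peaks. The number of runs depended on the permitted gap, with 0 runs at a gap under 1000 bp and 469 runs, holding 5627 peaks, at a gap under 3000 bp. The runs spanned 6318 to 20061 bp with a median of 11521 bp, and together 498 kb, of which 132 kb (26.6%) lay in peaks. Density was 0.949 peaks per kb inside runs, 0.280 per kb in the 50 kb on either side and 0.174 per kb over chromosomes 1 to 25 up to their last peak. Inside runs the density is high by the rule itself.

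Spacing inside the runs was uneven. The 430 gaps between neighbours had a median of 766.5 bp and quartiles of 294.5 and 1324 bp. At one extreme, 40 gaps (9.30%) were under 100 bp, and at the other 23 gaps, in 14 runs, were within 100 bp of the limit. When peaks under 100 bp apart were counted as 1, an alternative added after the data were seen, 28 runs with at least 10 elements were left. The gaps that ended the runs had a median of 3776 bp, and 14 of these 84 gaps were under 2500 bp. The run with the densest packing was on chromosome 10, 22565398 to 22571715, where 10 peaks lay in 6318 bp at 1.58 peaks per kb and covered 46.0% of the stretch. It was picked out after its values were seen, as was the sparsest run, on chromosome 9 at 1947211 to 1962401, with 0.724 peaks per kb.

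Runs were found on 18 chromosomes. Chromosomes 7, 9 and 17 had 5 each, chromosome 16 had 4, and chromosomes 12 and 24 had 3 each. Chromosomes 3, 6, 13, 14, 19, 22 and 23 had none. Chromosome 17 had the highest yield, with 60 members among its 9285 peaks, whereas chromosome 3, with 10641 peaks, had no member. Only 1 run lay within 100 kb of the first or last peak of its chromosome, the run on chromosome 1 at 70931 to 78266. The single run on chromosome 4 was at 14360304 to 14371657, and none lay beyond 30 Mb on that chromosome, in its peak-poor part. In 3 cases a run was less than 1 Mb from the next. On chromosome 2 the gap between runs was 118 kb, on chromosome 17 it was 475 kb, and on chromosome 24 it was 862 kb.

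A few runs could be tied to genes, because the study links peak identifiers to genes. It assigned these links by proximity and advises caution with them for single elements. In the part of its tables read here, 13 of the 472 members, in 7 runs, carried a link. That part links 1930 peaks in all, where 238369 are listed. This part lists regions assigned to genes higher in the NR, and regions of keratin and desmosome genes higher in the RPE. Which genes appear below therefore depends on that choice of lists. The runs linked to hoxb1b, lmna and ildr1a were named by the rule for runs, and the other linked runs were added after their values were seen. The run of 15 peaks on chromosome 12, 27044296 to 27057834, held 2 peaks linked to hoxb1b, a homeobox gene that patterns the hindbrain. The run on chromosome 9 at 1947211 to 1962401 held 3 peaks linked to hoxd4a, a Hox gene of the body axis. A run on chromosome 11 at 3837461 to 3849737 held 2 peaks linked to gata2a, which encodes a zinc-finger factor known from blood and vessel development. The others were linked to ildr1a (chromosome 1), lmna, which encodes a nuclear lamin (chromosome 16), fgfr4, a receptor for fibroblast growth factors (chromosome 21), and oxsr1b, a protein kinase (chromosome 24). The links cover only part of the study's regions, so the other 35 runs are not thereby without genes.

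Peaks of the dense runs had more counts than the other peaks. Their median was 5.58 CPM in replicate 1 and 4.96 CPM in replicate 2, against 1.79 and 1.98 CPM for the other 233343 peaks. The ratio of these medians was 3.12 in replicate 1 and 2.50 in replicate 2, a mean of 2.81 ± 0.436 (SD, n = 2). Both libraries gave the same direction, and the gap between the peak sets was larger than the gap between the libraries. Runs held 0.383% of all counts in replicate 1 (exact Clopper-Pearson 95% interval 0.380 to 0.385%) and 0.347% in replicate 2 (0.345 to 0.350%), from 0.198% of the peaks. These intervals cover counting error only, and the libraries differ by more than that error. The range was wide, with 0.125 to 44.3 CPM in replicate 1 and 0.356 to 42.4 CPM in replicate 2. No member reached the 331 and 502 CPM of the highest peak elsewhere on these chromosomes.

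Shorter runs had intermediate values. Median CPM was higher in each longer class of runs as grouped here, in both libraries. Single peaks had medians of 1.50 CPM in replicate 1 and 1.73 CPM in replicate 2, and runs of 4 to 5 peaks had 2.54 and 2.59 CPM. Runs of 8 to 9 peaks had 5.17 and 4.73 CPM, runs of 10 to 12 peaks had 5.46 and 4.83 CPM, and runs of 13 to 16 peaks had 6.29 and 5.29 CPM. The quartiles of neighbouring classes overlapped throughout. At the limit, runs of exactly 9 peaks had medians of 4.92 and 4.53 CPM and runs of exactly 10 had 5.42 and 4.83 CPM, so little separated the runs just outside the rule from those just inside. Single run lengths did not rise steadily, as runs of exactly 8 peaks had 5.27 and 4.83 CPM. Runs of exactly 11 had 5.44 and 4.60 CPM. Across the dense runs, peak number and mean CPM per peak had a Spearman correlation of 0.020.

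**Figure D1:**
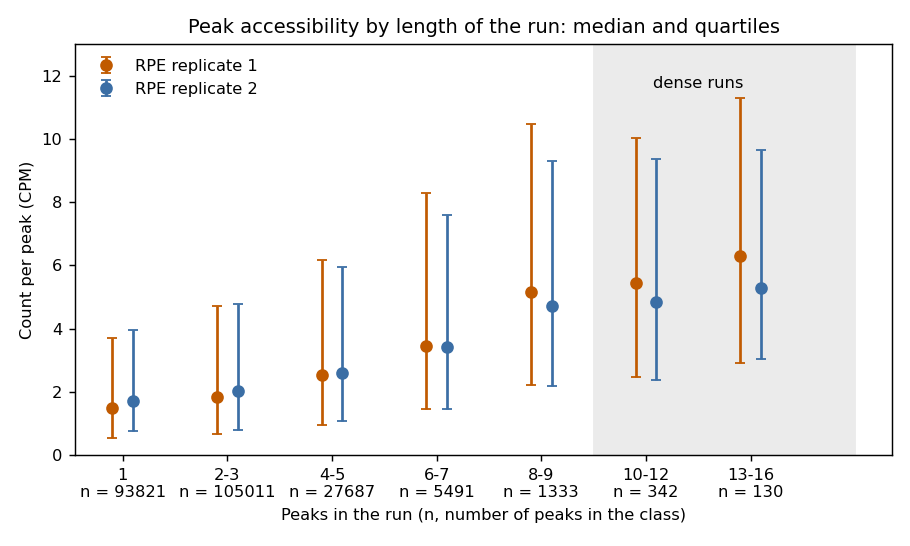
Counts per peak in CPM (points, medians; bars, lower to upper quartile) for runs of increasing length, in RPE replicate 1 (orange) and replicate 2 (blue), with the number of peaks in each class below. The medians of these classes climb from 1.50 and 1.73 CPM for single peaks to 6.29 and 5.29 CPM for runs of 13 to 16 peaks.

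Members were not wider than other peaks. Their median width was 258 bp, against 262 bp for the other peaks, and their quartiles were 187.5 and 348 bp, against 157 and 378 bp. None of the 472 members was 1 kb or wider, and the widest had 891 bp. Such wide peaks were rare elsewhere too, at 1236 of the other peaks (0.530%) and 0 of the 405 peaks in runs of 9. The narrowest width in the list, 100 bp, was found in 2.75% of members and 2.96% of peaks in runs of 9, against 6.05% of the other peaks. Per kb of width, members had a median of 21.0 CPM in replicate 1 and 19.7 CPM in replicate 2, against 6.83 and 7.74 CPM per kb for the other peaks.

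The difference was present in every width class that held members. Among peaks of 200 to under 300 bp, 166 members had a median of 4.71 CPM in replicate 1 and 4.30 CPM in replicate 2, against 1.67 and 1.83 CPM for 61710 other peaks. From 100 to under 150 bp the ratio of medians was 3.60 in replicate 1 and 2.55 in replicate 2. It was smaller in the widest class, 600 to under 900 bp, at 2.15 and 1.96 for 11 members. Within the runs, as elsewhere, wide peaks had more counts, with a Spearman correlation of width and mean CPM of 0.845 across the 472 members and 0.885 across the other peaks. Peaks share libraries and are not independent, so these coefficients carry no p-value.

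Peaks around the runs lay between both levels. The 1174 peaks within 50 kb of a run, outside it, had a median of 2.79 CPM in replicate 1 and 2.80 CPM in replicate 2. The median peak of the run had more counts than the median peak of its own surroundings in 35 of 42 runs. Strong peaks, defined next, made up 22.7% of members and 14.7% of these surrounding peaks.

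Members fell into every class of strength, and 20 of the 42 runs held both strong and weak elements. A peak was called strong in the top 10% of peaks on chromosomes 1 to 25 by mean CPM (10.5 CPM or more) and weak in the lower 50% (1.89 CPM or less). Of the 472 members, 107 (22.7%) were strong, 286 (60.6%) were intermediate and 79 (16.7%) were weak. Among the other peaks, 9.98% were strong, 39.9% intermediate and 50.1% weak. Runs just short of the limit had a mix close to that of members. In runs of 8 to 9 peaks, 23.1% were strong and 20.3% weak. Runs of 10 to 12 peaks had 21.6% and 17.5%, and runs of 13 to 16 peaks had 25.4% and 14.6%. The share of strong peaks thus did not set dense runs apart from runs of 8 to 9. Strong members held 56.7% of the dense-run counts in replicate 1 and 55.9% in replicate 2, and weak members held 2.56% and 2.78%. The classes were cut on the same counts, so a large share for strong and a small share for weak members is built in. The classes carried over between libraries. Of 110 members in the top 10% in replicate 1 alone, 98 (89.1%) were in the top 10% in replicate 2.

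Strong elements were spread over most runs, with a mean of 2.55 per run and a maximum of 7. In 7 runs there was none, and 14 runs with at least 4 held 71 of the 107. Weak elements were absent from 15 runs, and 7 runs had 5 or more. In 17 runs weak elements outnumbered strong ones. Ranked by CPM per kb in place of CPM, the number of strong elements per run was 4.88.

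**Figure D2:**
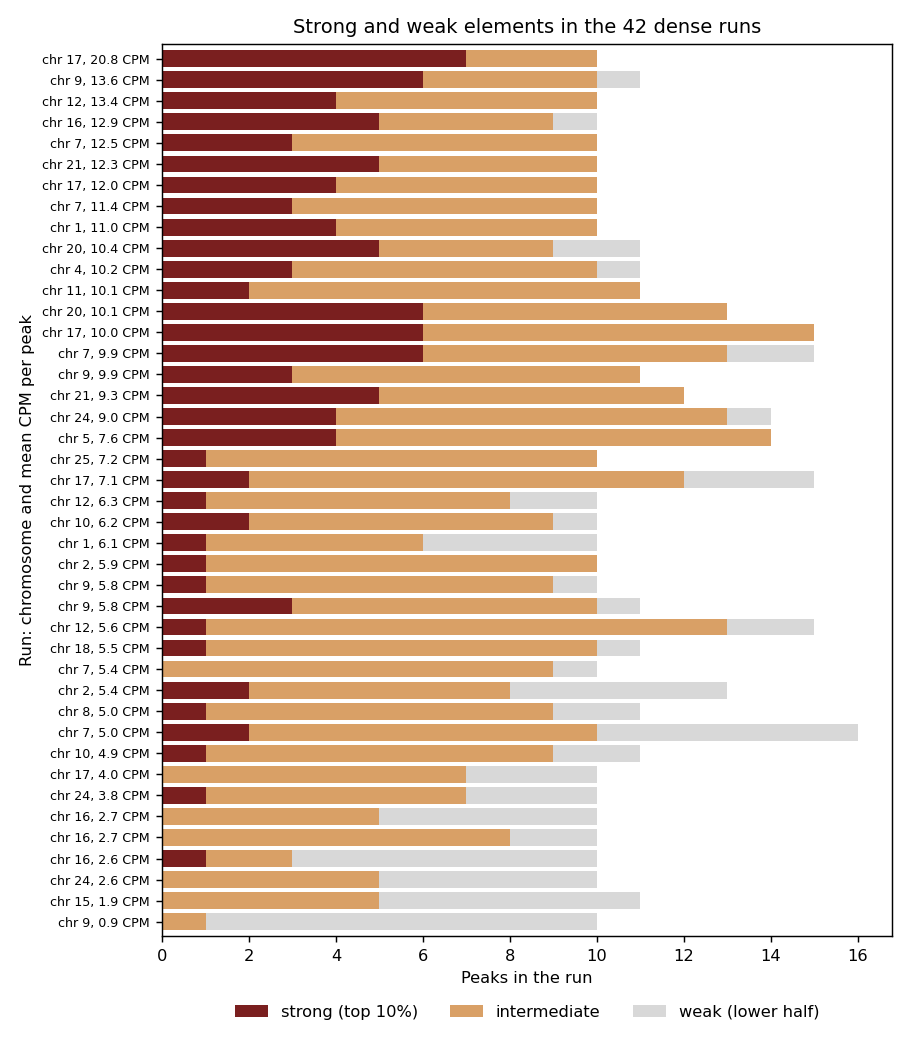
Number of strong (dark red), intermediate (tan) and weak (grey) peaks in each of the 42 dense runs, ordered from the highest mean CPM per peak at the top to the lowest. Strong elements range from 7 in the top run on chromosome 17 to 0 in 7 runs, and the lowest run, on chromosome 9, has 9 weak peaks of 10.

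Strong members were wider than weak ones. The median width was 404 bp for strong members and 118 bp for weak members, against 573 bp for the other strong peaks and 159 bp for the other weak peaks. Per kb of width, strong members had medians of 45.2 CPM in replicate 1 and 39.2 in replicate 2, against 31.4 and 29.2 for other strong peaks. Without division by width, strong members had medians of 18.71 CPM in replicate 1 and 15.67 CPM in replicate 2. Other strong peaks had 16.92 and 15.98 CPM, so the order differed between the libraries. Strong members were the narrower set, so their higher values per kb do not show more counts per peak. Weak members had 8.98 and 9.16 CPM per kb, against 4.17 and 5.15 for other weak peaks.

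Position in the run showed little relation to strength. The 84 end peaks had a median of 5.46 CPM in replicate 1 and 5.29 CPM in replicate 2, against 5.71 and 4.91 CPM for the 388 inner peaks. Strong elements made up 22.6% of end peaks and 22.7% of inner peaks. Strong members had a strong neighbour in 49 of 107 cases (45.8%), against 118 of 365 (32.3%) for the other members, and 28 of the 430 neighbour pairs were both strong. The median gap was 1144.5 bp between 2 strong peaks and 741 bp between peaks that were both not strong. Across neighbour pairs, the Spearman correlation of CPM was 0.325 in replicate 1 and 0.277 in replicate 2 for dense runs, against 0.413 and 0.357 for 85855 pairs in shorter runs. Neighbours share their chromosomal surroundings and their libraries, so these values are given as a description. On the scale of log2(CPM + 1), the SD between peaks of the same run was 0.94, and the SD between the means of the runs was 0.68. A mean over at least 10 peaks varies less than a single peak, so the 2 values cannot be ranked directly.

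The strongest peak was often followed closely by the next. In mean CPM, it exceeded the second peak of its run by a median of 1.36-fold and by up to 4.03-fold, and by at least 2-fold in 9 of 42 runs. The strongest peak of a run held a median of 22.2% of the counts of its run in replicate 1 and 22.7% in replicate 2. Since a maximum is high by choice, the leader was also taken from one library and measured in the other. The leader of replicate 1 then held a median of 22.7% in replicate 2 (range 13.2 to 50.6%), and that of replicate 2 held 21.7% in replicate 1 (range 9.43 to 45.4%). The same peak led in both libraries in 34 of 42 runs, and the leader of replicate 1 was first or second in replicate 2 in 38. In mean CPM, the strongest peak exceeded the weakest of its run 4.15-fold to 41.8-fold, with a median of 11.9-fold. The leader was itself strong in 35 of 42 runs.

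Peaks beside the leader had medians close to that of all members. The set of all members includes the leaders, so it cannot show whether the peaks beside them have ordinary levels. A leader is the highest of its run by choice, so its excess over the peaks beside it is a description. Leaders of replicate 1 had a median of 20.3 CPM in replicate 2, against 5.09 CPM for the peaks beside them and 4.96 CPM for all members. Peaks 2 to 6 places away had medians of 3.89 to 5.32 CPM, with no steady decline. In the opposite direction, leaders of replicate 2 had 20.8 CPM in replicate 1, their neighbours had 5.46 CPM, and all members had 5.58 CPM. Leaders were end peaks in 9 of 42 runs (21.4%), where end peaks are 17.8% of all members.

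**Figure D3:**
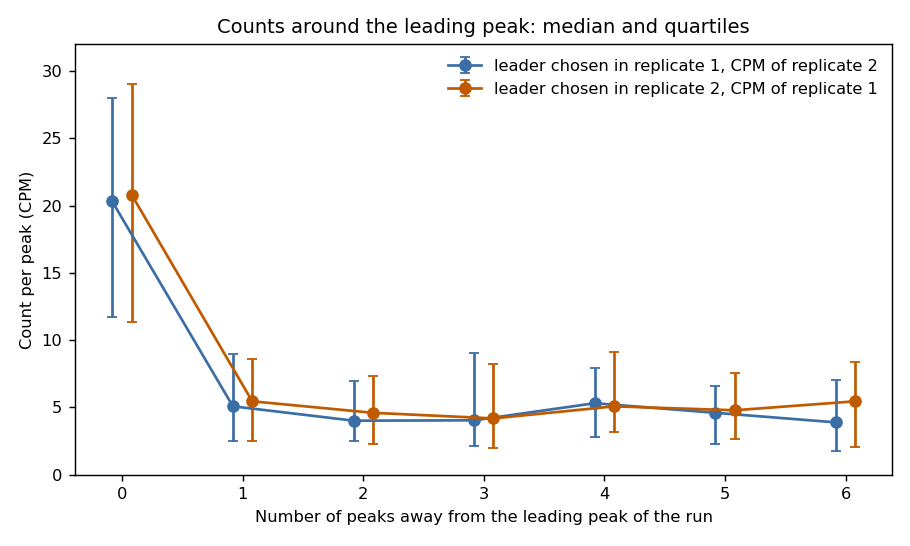
Counts in CPM (points, medians; bars, quartiles) of peaks 0 to 6 places from the leading peak of their run, with the leader chosen in one RPE library and counts read from the other. Leaders have medians of 20.3 and 20.8 CPM and their direct neighbours 5.09 and 5.46 CPM, after which the medians stay between 3.89 and 5.46 CPM.

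The 5 runs with most peaks differed in their makeup. The longest in peaks was on chromosome 7, 40708549 to 40724645, with 16 peaks in 16097 bp, of which 2 were strong and 6 weak. Its sum was 81.5 CPM in replicate 1 and 77.2 CPM in replicate 2. Its leader, at 40713275 to 40713657, had 13.6 and 15.6 CPM, and its weakest peak, at 40715185 to 40715302, had 0.750 and 0.509 CPM from 18 and 10 counts. The strongest and the weakest were thus direct neighbours, 1527 bp apart.

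The widest run was on chromosome 17, 21748044 to 21768104, where 15 peaks in 20061 bp summed to 159 CPM in replicate 1 and 141 CPM in replicate 2. It had 6 strong and no weak peaks. Its first 3 peaks were all strong, with 21.0, 22.8 and 25.9 CPM in replicate 1 and 22.9, 18.1 and 26.6 CPM in replicate 2. The run 475 kb before it, at 21257361 to 21272862, also had 15 peaks but only 2 strong and 3 weak ones. There the last peak led, with 24.8 and 24.1 CPM, and the weakest, of 1.33 and 0.967 CPM, was second in line. With the same number of peaks, this run summed to 111 and 102 CPM.

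Of the remaining runs of 15 peaks, that on chromosome 7 at 15615865 to 15630134 had 6 strong peaks and a sum of 155 CPM in replicate 1 and 142 CPM in replicate 2. Its leader, of 29.0 and 22.7 CPM, stood next to its weakest peak, of 1.88 and 1.42 CPM. The hoxb1b-linked run on chromosome 12 was more even. Its leader held 15.7% of its counts in replicate 1 and 15.1% in replicate 2, among the lowest shares of all runs, and only this peak, with 13.9 and 12.2 CPM, was strong. The peaks linked to hoxb1b were intermediate, with 7.04 and 7.89 CPM at 27049877 to 27050174 and 9.50 and 8.45 CPM at 27051541 to 27051786.

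**Figure D4:**
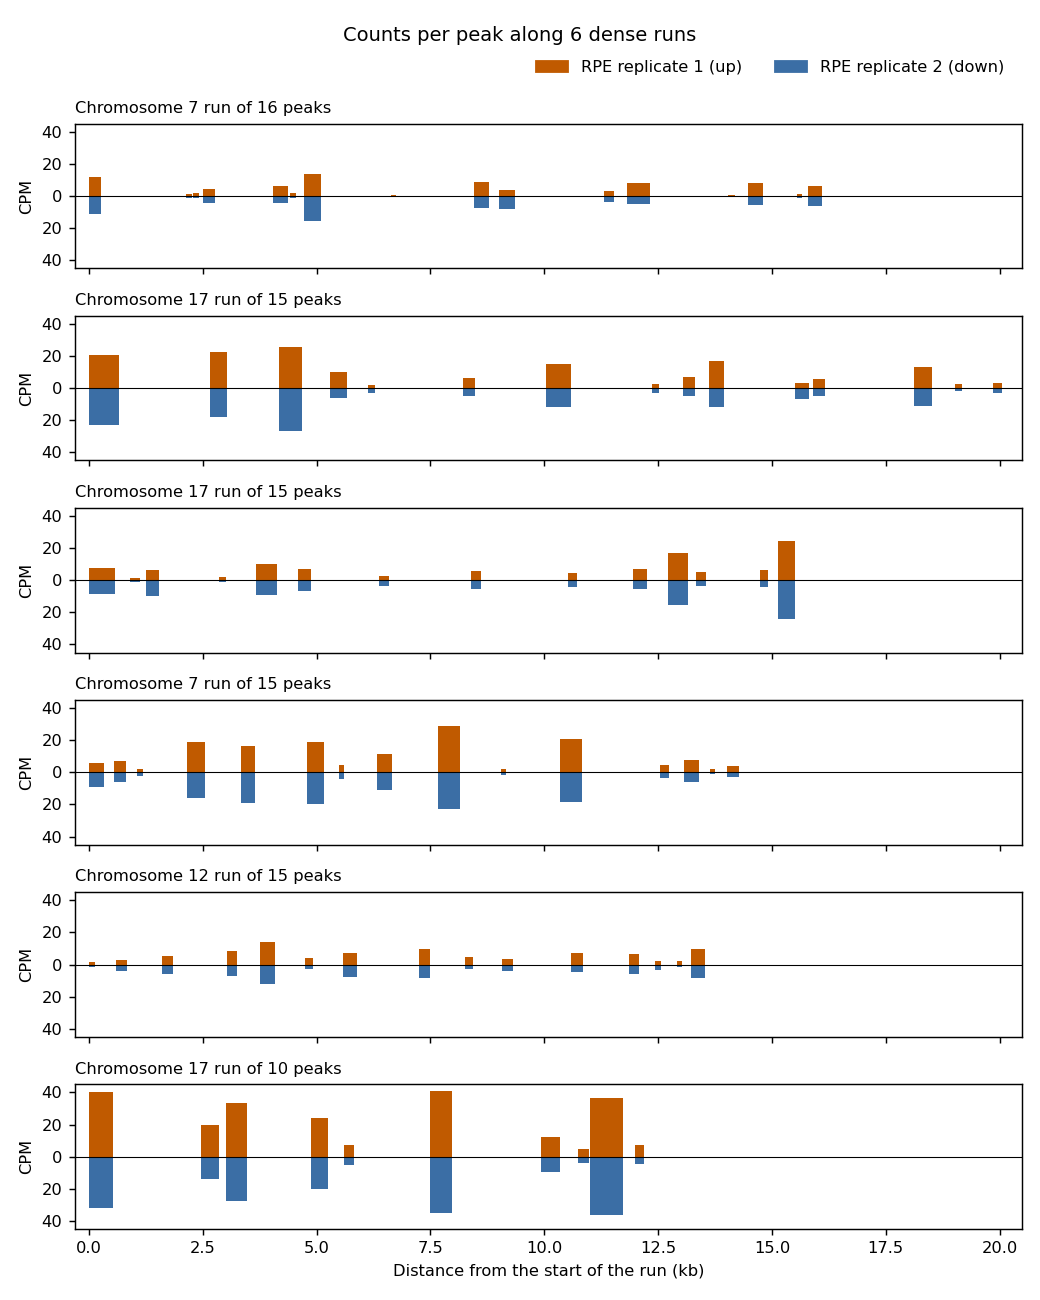
Peaks of 6 dense runs drawn to scale along the run (kb from its start), with their counts in CPM in RPE replicate 1 upward in orange and RPE replicate 2 downward in blue. The upper 5 are the runs with most peaks and the lowest is the run of 10 peaks on chromosome 17 with the highest mean, where 7 of 10 peaks are strong.

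The most open run was on chromosome 17, 11164427 to 11176626. Its 10 peaks averaged 22.7 CPM in replicate 1 and 19.0 CPM in replicate 2, summing to 227 and 189.7 CPM (208 ± 26.0, SD, n = 2), the highest of the 42 runs in both. It held 7 strong peaks and no weak one. Peaks of more than 30 CPM in both libraries were the first, with 40.4 and 31.8 CPM, the sixth, with 40.8 and 35.4 CPM, and the ninth, with 36.5 and 36.6 CPM. Even its weakest peak, with 4.79 and 4.17 CPM, was above the 1.79 and 1.98 CPM of the median peak outside dense runs.

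The next highest means per peak were clearly lower. The run on chromosome 9 at 29849031 to 29860897 averaged 14.7 CPM in replicate 1 and 12.5 CPM in replicate 2. That on chromosome 12 at 34628035 to 34637076 averaged 15.1 and 11.8 CPM. On chromosome 16, 23364523 to 23377416 averaged 13.6 and 12.3 CPM, and on chromosome 7, 21482959 to 21493903 averaged 13.1 and 11.8 CPM. These 4 do not separate from each other beyond the difference between their libraries.

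The strongest single members came from 4 runs. A peak on chromosome 7, 21485494 to 21485975, had 42.0 CPM in replicate 1 and 42.4 CPM in replicate 2. The leader of the gata2a-linked run, at chromosome 11, 3841047 to 3841450, had 44.3 and 37.3 CPM. It held 38.1% of the counts of that run in replicate 1 and 35.2% in replicate 2, while the peaks linked to gata2a itself had 2.29 and 2.34 CPM and 6.50 and 6.51 CPM. On chromosome 12, the last peak of its run, 34636391 to 34637076, had 42.0 and 32.3 CPM. The remaining strongest members were the sixth and ninth peaks of the most open run.

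At the other end, the 3 runs with the lowest means were all below the mean of the other peaks, 4.18 CPM in replicate 1 and 4.16 CPM in replicate 2. By the median peak of the run, those on chromosomes 9 and 15 were below the median other peak, of 1.79 and 1.98 CPM, in both libraries. On chromosome 9, 31155706 to 31167118, 10 peaks summed to only 9.46 CPM in replicate 1 and 9.51 CPM in replicate 2, and 9 were weak. Its leader had 2.63 and 2.04 CPM from 63 and 40 counts, and its weakest peak had 5 and 9 counts. On the same chromosome, 1295 kb away, the run at 29849031 summed to 162 and 138 CPM. On chromosome 15, 27076161 to 27086133, the 11 peaks averaged 2.03 and 1.85 CPM, with 6 weak and no strong. On chromosome 24, 16117989 to 16126943, the 10 peaks averaged 2.00 and 3.16 CPM, with 5 weak and no strong. Peak number and mean CPM per peak had a Spearman correlation of 0.020 across the 42 runs, given as a description. With 22 runs tied at 10 peaks, this coefficient could show little of a relation.

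Runs also differed in how far they were led by one peak. The largest shares belonged to 3 runs on chromosomes 12, 16 and 18. On chromosome 12, 47825342 to 47835693, the third peak had 31.2 CPM in replicate 1 and 29.3 CPM in replicate 2, which was 45.4% and 50.6% of the counts of the run, and each other peak was under 10 CPM. On chromosome 16, 32791172 to 32803126, 1 strong peak of 10.4 and 11.5 CPM stood among 7 weak ones and held 43.9% and 40.7%. On chromosome 18, 38771883 to 38781085, the second peak led, with 24.1 and 24.3 CPM. The most even runs, beside that linked to hoxb1b, were on chromosome 16 at 734527 to 746011, with 16.7% and 14.7%, and on chromosome 20 at 22574242 to 22589253, with 15.6% and 16.4%. These last runs were even at different levels, with a mean per peak of 2.56 and 2.74 CPM on chromosome 16 and 10.3 and 9.77 CPM on chromosome 20.

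The Hox-linked run on chromosome 9 had 3 strong peaks of 11. The peaks linked to hoxd4a had 13.5, 5.25 and 7.79 CPM in replicate 1 and 9.97, 3.87 and 5.29 CPM in replicate 2. The lmna-linked run on chromosome 16, 30576407 to 30588882, had no strong and 5 weak peaks, and its linked peaks had 3.08 and 8.25 CPM in replicate 1 and 2.04 and 4.07 CPM in replicate 2. The ildr1a-linked peaks on chromosome 1 had 241 and 58 counts in replicate 1 and 157 and 40 counts in replicate 2, the fgfr4-linked peak had 3.54 and 3.21 CPM, and the oxsr1b-linked peak had 3.92 and 3.56 CPM. Of these 13 linked peaks, 1 was strong and 12 were intermediate, in lists that the study had selected by differences between the NR and RPE.

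The libraries matched closely at the level of runs. Across the 42 runs, log2(summed CPM + 1) had a Pearson correlation of 0.985 and a Spearman correlation of 0.971 between replicates, and across the 472 peaks the Pearson correlation of log2(CPM + 1) was 0.966, against 0.963 across the other peaks. Within single runs, the Spearman correlation of counts had a median of 0.939, and its lowest value, 0.523, was that of the even run on chromosome 16 at 734527. Runs and peaks are not replicates, so no p-value is attached.

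Sums were slightly higher in replicate 1, in 35 of 42 runs, with a median log2 ratio of replicate 1 over replicate 2 of 0.14. With TMM or DESeq2 scaling, which add 0.09 to every log2 ratio, 37 were higher in replicate 1. The largest ratios were 0.36 for the run on chromosome 12 at 34628035, 0.35 for the lmna-linked run and 0.29 for the ildr1a-linked run. The smallest were -0.66 for the run on chromosome 24 at 16117989, -0.26 for that on chromosome 16 at 32791172 and -0.20 for that on chromosome 9 at 21908407. The chromosome 24 run stood apart, with a sum of 480 counts in replicate 1 and 621 in the shallower replicate 2, and all of its 10 peaks had a higher CPM in replicate 2. Its leader had 5.58 and 9.16 CPM (exact binomial test, Benjamini-Hochberg adjusted p = 0.000719), and 4 of its 10 peaks passed the test. Over all peaks tested, 13.3% passed. The run was picked for its extreme ratio of the same counts, so passing adds no evidence. Other runs had more such peaks, with 7 of 10 in the most open run on chromosome 17 and 6 of 10 in the run on chromosome 12 at 34628035.

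**Figure D5:**
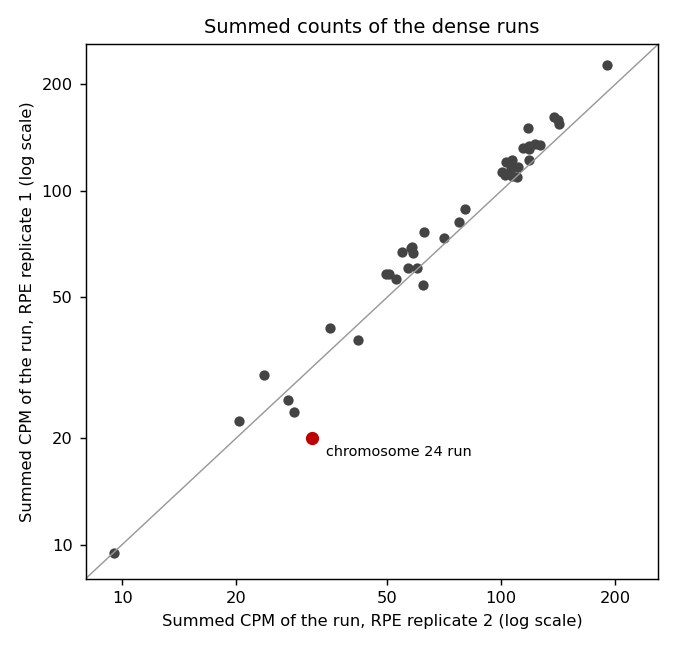
Summed CPM of each of the 42 dense runs in RPE replicate 1 (vertical) and replicate 2 (horizontal), both on log scales, with the line of equal values in grey. Most runs, 35 of 42, lie above the line, and the chromosome 24 run in red lies furthest below it, with a log2 ratio of -0.66.

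Differences between the libraries were tested for each peak with an exact two-sided binomial test, adjusted over all 238310 peaks with a count. Its p-values concern these libraries and no condition. With a threshold of 0.05 on the adjusted p, 93 of 472 members (19.7%) differed, against 13.3% of all peaks tested. Of these, 74 were higher in replicate 1 (15.7% of members, against 5.09% of all peaks) and 19 in replicate 2 (4.03%, against 8.21%). Members had more counts than other peaks, and the share called was larger at higher counts. Among peaks with 500 or more counts in the pooled libraries, 34.4% of 96 members were called, against 30.4% of other peaks, from 200 to under 500 counts it was 22.6% of 164 members, against 17.5%, and from 50 to under 200 counts 12.3% of 179 members, against 11.3%. Under 50 counts the order was the other way, with 3.03% of 33 members against 9.33%. The median log2 ratio was 0.17 for members and 0.10 for other peaks at 500 or more counts, 0.15 and 0.03 from 200, 0.10 and -0.12 from 50, and -0.11 and -0.39 under 50. With the trend of the ratio over counts removed, 62 members (13.1%) were called, against 10.3% of all peaks. What part the difference between the libraries has in the counts of the runs was not tested.

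Among members whose pooled count reached 50, the largest ratios were on chromosome 1, 70931 to 71052, with 56 counts in replicate 1 and 17 in replicate 2 (log2 ratio 1.40), on chromosome 7, 15629497 to 15629613, with 55 and 20 counts (1.15), and on chromosome 12, 47835453 to 47835693, with 86 and 34 counts (1.04). The smallest were on chromosome 18, 38775955 to 38776072, with 19 and 37 counts (-1.23), on chromosome 24, 16124421 to 16124672, with 28 and 54 counts (-1.22), and on chromosome 17, 21763540 to 21763857, with 73 and 132 counts (-1.14). All 6 passed the binomial test, with adjusted p from 7.1e-06 to 0.025. They were picked for extreme ratios of the same counts, so passing adds no evidence. None was the leader of its run.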

How the data were processed

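The authors deposited, for each of the 2 RPE libraries (GFP-positive cells of pooled tg(Enh-1_bHLHe40:GFP) embryos at 23 hpf, called biological replicates by the study), the raw count in every listed peak. Per the study's methods, read pairs were aligned with Bowtie2 to danRer10, duplicates were removed with Samtools, read starts were offset for the transposase, and short inserts were kept as nucleosome-free. MACS2 is named in the submitters' processing notes without a role. How peaks were called or pooled and what was counted per peak are not given in the sources used here. If only the short inserts were counted, reads spanning nucleosomes are left out, and duplicate removal can lower the highest counts.

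The whole numbers were divided by the library total in peaks to give CPM (23996755 and 19653966 counts). Coordinates are danRer10, 1-based. Runs, shares, medians and Spearman correlations were computed in Python 3.11.15 with numpy 2.4.6, pandas 2.3.3, scipy 1.17.1 and statsmodels 0.14.6, and plots in matplotlib 3.10.9. The libraries were compared with an exact two-sided binomial test per peak against the share set by the totals, with Benjamini-Hochberg adjustment over all 238310 peaks with a count and a threshold of 0.05. Its p-values concern these 2 libraries only. Log2 ratios of single peaks use a pseudocount of 0.5 counts, and log2(CPM + 1) a pseudocount of 1 CPM. Those of summed run CPM use no pseudocount. On simulated data, the binomial test recovered 143 of 200 peaks changed 2-fold (71.5%), with 3 false calls. The simulated counts held counting error only, and changes were planted only in peaks above a minimum pooled count. Few false calls follow from that setting and do not give the error rate in the real libraries, where 13.3% of all peaks were called. Exact Clopper-Pearson intervals (95%) cover counting error only.

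Alternatives were TMM scaling (edgeR 4.0.16 in R 4.3.3), DESeq2 1.42.0 size factors, other gap limits, a minimum of 10 counts, CPM per kb, other strong limits, a removed trend and each library alone. The members, lists and rules were chosen with earlier results of these data known. Runs were named by most peaks (5), highest (5) and lowest (3) mean CPM, and by the 3 extremes of sum, leading share and log2 ratio. Peaks were named as the 5 strongest, the 3 largest and the 3 smallest ratios among those with 50 counts, and the strongest and weakest of the runs with most peaks. Genes are those that the study links to a peak identifier by proximity. Its tables were used here only in part and are restricted to regions it called different between the NR and RPE. The parts used cover regions of genes higher in the NR, and of keratin and desmosome genes higher in the RPE. No danRer10 annotation was used, so marker genes and sequences were left out.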

Additional observations from a re-analysis of the deposited data

How the results depend on the processing

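Joining peaks at a gap under 1000 bp gave 0 runs, so no other value exists at that setting. A gap under 3000 bp gave 469 runs, which included all 472 members, with 4.27% of counts and a leading share of 25.1%. Only peaks of at least 10 counts in both libraries gave 39 runs, and the ratio of medians was then 2.18, or 2.06 when the filter was applied to the peaks measured. Ranking by CPM per kb gave a leading share of 20.3% and 4.88 strong elements per run, against 22.4% and 2.55 as reported. Strong elements per run were 1.40 at the top 5% and 5.21 at the top 20%, as a narrower or wider class must give. In single libraries the share of counts was 0.347 to 0.383%, the ratio of medians 2.50 to 3.12, the leading share 22.2 to 22.7% and the strong elements per run 2.57 to 2.62. Counting peaks under 100 bp apart as 1, which was chosen after seeing the data, gave 28 runs. Members that differed between libraries numbered 93 as reported (19.7%, against 13.3% of all peaks tested). They numbered 117 with TMM scaling (24.8%, against 14.1%) and 119 with DESeq2 size factors (25.2%, against 14.3%). There were 92 with the count filter (19.7%, against 13.3%) and 62 with the trend removed (13.1%, against 10.3%). Of the member calls, 79.6% were higher in replicate 1 as reported, 88.0% with TMM scaling and 88.2% with DESeq2 size factors. Over all peaks, 12139 of 31711 calls were higher in replicate 1 as reported. The correlation of the libraries across runs was 0.975 to 0.985. The cause of these shifts was not tested, apart from the class limits. No paired analysis was possible because the 2 libraries form a single group. Depth limits the weakest members most, where the lowest counts were 3 and 7.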

Other observations

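The 3 runs nearest to a peak that the study links to a gene, among runs without a linked peak of their own, were picked out after their distances were seen. The nearest was the run on chromosome 4 at 14360304 to 14371657, with 10.6 CPM per peak in replicate 1 and 9.82 CPM in replicate 2, which was 3.27 kb from a peak linked to plxnb2a, a plexin receptor gene. The run on chromosome 16 at 23364523 to 23377416, with 13.6 CPM per peak in replicate 1 and 12.3 CPM in replicate 2, was 4.84 kb from a peak linked to efna1b, which encodes an ephrin ligand. The next, the even run on chromosome 20 at 22574242 to 22589253, was farther away, at 33.1 kb from a peak linked to gsx2, a homeobox gene of the nervous system. Distances say nothing of which gene a run acts on.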
